A study of Mus musculus with 12 samples.

Results

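The genes described here are 9 that handle arginine, tryptophan and itaconate in macrophages: the arginine transporter Slc7a2, the arginases Arg1 and Arg2, the nitric oxide synthase Nos2, the arginine-making enzyme Ass1, the polyamine enzyme Odc1, the tryptophan dioxygenases Tdo2 and Ido1, and the itaconate enzyme Acod1. They were named by symbol, and all 9 were found among the 57010 Ensembl genes of the deposited count table. The list was chosen by pathway, but also selected on measured values: the genotype differences of Tdo2 and Acod1 in tumour-challenged cells were already known. The difference between genotypes in challenged cells, and the comparison of challenge responses built on it, are therefore given as descriptions without a test. The challenge comparisons use the same ID8 libraries, so their p-values and calls for Tdo2 and Acod1 are not independent of this selection.

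RNA came from large peritoneal macrophages, long-lived phagocytes that reside in the abdominal cavity, which had been sorted as F4/80 high and MHC class II low from female mice. Of the 4 groups, WT naive and Tim4KO naive came from mice that received no tumour cells. WT ID8 and Tim4KO ID8 came from mice injected into the peritoneum at 8 weeks of age with ID8ZGO, an ID8 mouse ovarian tumour line carrying ZsGreen and OVA, and cells were taken 24 h later. Tim4KO mice lack Tim4, a receptor for phosphatidylserine on dying cells that is encoded by Timd4; the strain background and the age of the naive mice are not given in the sources used here. Each group held 3 libraries, numbered 1 to 3 as in the labels, which do not say whether animals were pooled or whether libraries of a group came from separate animals. The p-values therefore measure the spread between these libraries, which may be technical. Only ZsGreen-positive macrophages were kept from challenged mice, so challenge and uptake of tumour material cannot be told apart.

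Macrophages take up arginine through cationic amino acid transporters such as the product of Slc7a2. Arginase turns it into ornithine and urea, while the inducible nitric oxide synthase turns it into nitric oxide and citrulline, which Ass1 helps to recycle into arginine. Ornithine feeds polyamine synthesis through ornithine decarboxylase, the product of Odc1. Tryptophan is opened to kynurenines, some of which are ligands of the aryl hydrocarbon receptor, by the enzymes encoded by Tdo2 and Ido1. Acod1 makes itaconate from cis-aconitate of the tricarboxylic acid (TCA) cycle, and itaconate inhibits succinate dehydrogenase.

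Library totals ran from 7358559 to 23170244 counts, the largest in WT ID8 3. Timd4 lay between 882 and 1481 CPM (counts scaled to library size, here with TMM factors) in the 6 WT libraries and between 1.38 and 7.68 CPM in the 6 Tim4KO libraries, so no library went against its genotype label. All 9 markers of large peritoneal macrophages exceeded 3 counts in every library, but some levels shifted with challenge. Alox15 ran from 9797 to 13060 CPM in naive and 4746 to 8122 in ID8 libraries. Adgre1 (2545 to 3769 and 3917 to 6289 CPM), Icam2 (613 to 907 and 937 to 1483) and Itgam (985 to 1328 and 1703 to 2351) were higher in ID8 libraries. Naive and ID8 libraries overlapped in Gata6, Cd14, Csf1r, Prg4 and Vsig4. The 9 neutrophil markers summed to 7.23 to 8.16 CPM in WT naive, 7.96 to 10.7 in Tim4KO naive, 12.2 to 32.1 in WT ID8 and 21.8 to 33.4 in Tim4KO ID8, with S100a8 at 4.38 to 7.35 CPM in naive and 9.12 to 24.8 CPM in ID8 libraries. Retnlg ran from 0 to 1.85 CPM in naive and 0.60 to 11.9 in ID8 libraries. Cxcr2 ran from 0 to 0.95 and 0.18 to 3.33, and S100a9 from 0.07 to 1.23 and 0.46 to 3.90. Ly6g was at 0 in 6 libraries and at most 0.23 CPM. Elane (0.27 to 0.78 CPM in naive, 0 to 0.55 in ID8), Mpo (0.07 to 0.65 and 0 to 0.46) and Camp (0.07 to 0.41 and 0.05 to 0.34) did not exceed their naive range in ID8 libraries. Ltf was at 0.27 to 0.54 and 0 to 0.83 CPM. From 2 to 8 of these 9 exceeded 3 counts in a naive library and 4 to 7 in a challenged one. Epithelial or tumour cell markers summed to 5.12 to 22.3 CPM in naive and 1.14 to 4.78 CPM in ID8 libraries. Mast cell markers summed to 13.3 to 38.6 CPM in naive and 2.29 to 9.52 in ID8, and B cell markers to 8.28 to 21.6 and 3.43 to 8.48. Markers of small peritoneal macrophages and dendritic cells summed to 140 to 191 CPM in naive libraries. In ID8 libraries they summed to 76.4 to 158 CPM, the highest in WT ID8 3. Eosinophil markers summed to 2.52 to 4.64 CPM in naive and 1.97 to 4.53 in ID8. T and NK cell markers summed to 2.78 to 5.90 and 2.23 to 5.91. Reads in olfactory and vomeronasal receptor genes, a measure of background, summed to 325 to 830 CPM in WT naive and 6.84 (library 3) to 254 CPM in WT ID8, without overlap, and to 267 to 447 and 42.4 to 361 CPM in Tim4KO. With this sum as a covariate Arg1, Slc7a2, Odc1 and Acod1 were called with challenge in both genotypes, and Ass1 was not called in WT (log2 difference 0.65). Over all tested genes 3479 instead of 5067 were called with challenge in WT. Because the sum did not overlap between the WT conditions, this fit cannot separate background from challenge in WT. WT ID8 3 stood apart from the other WT ID8 libraries in several of the genes below.

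**Figure D1:**
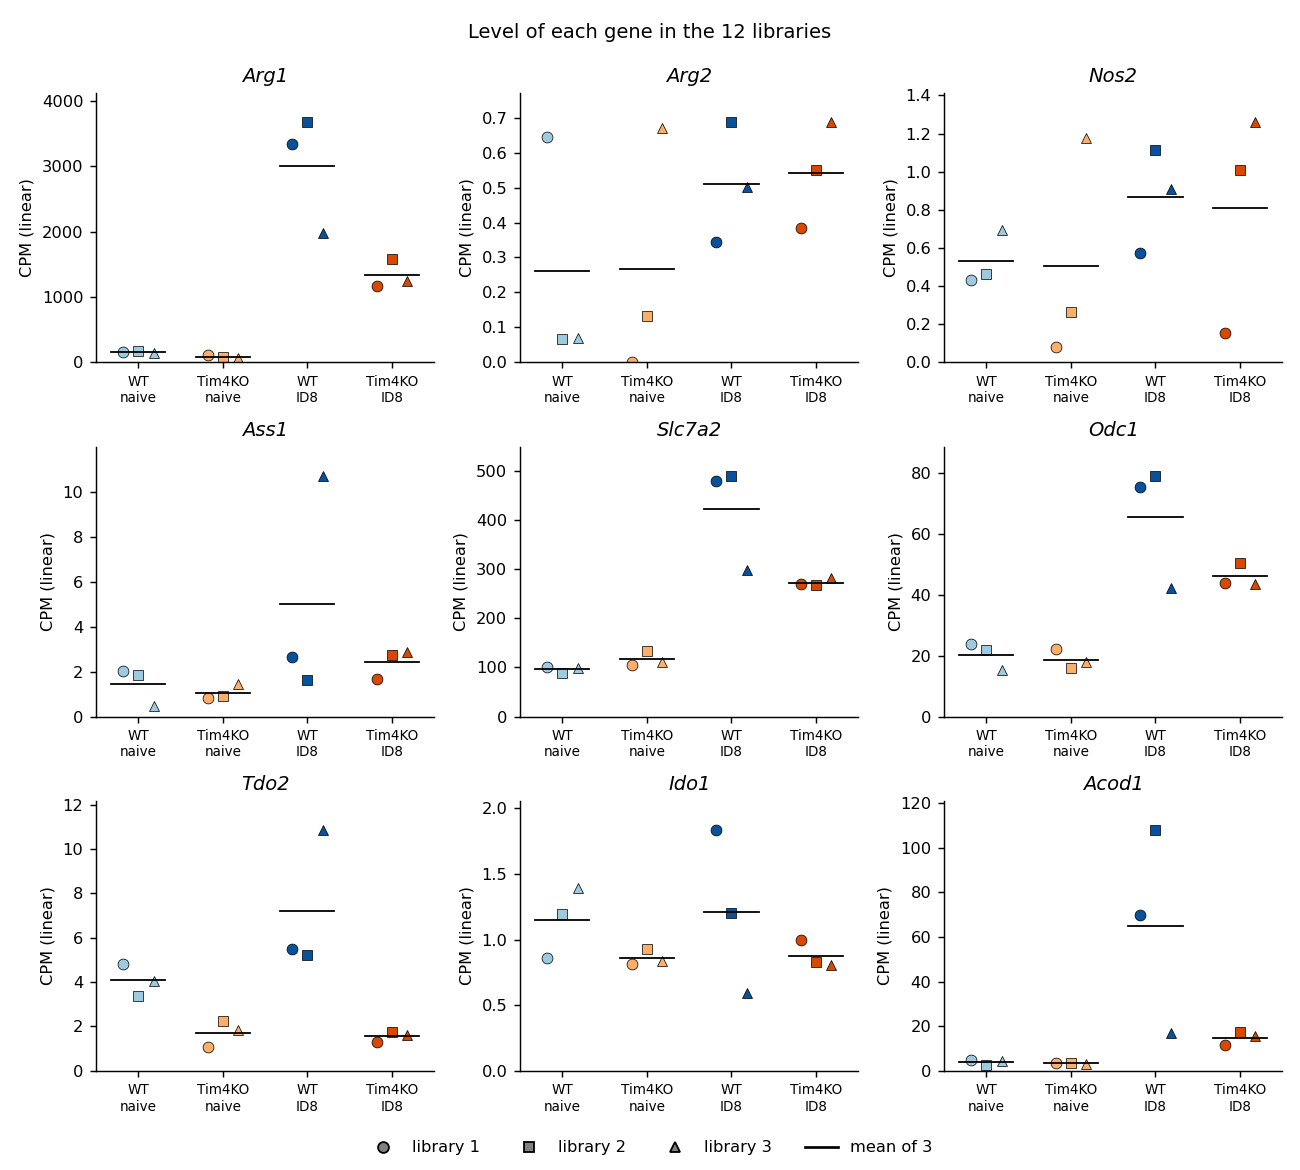
Level of each of the 9 genes (CPM, linear axis from 0) in the 12 libraries, with 1 point per library, its shape showing the library number, and a line at the mean of 3. Arg1, Slc7a2, Odc1 and Acod1 were higher in the ID8 libraries than in the naive libraries of the same genotype, and WT ID8 3 (triangle) lay well below the other WT ID8 libraries in these 4 genes and above them in Ass1 and Tdo2.

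Arg1 was the most abundant of the 9 genes per length and had a large challenge response. In WT the challenge response of Acod1, not its level, was close to that of Arg1. The Acod1 response was the larger without WT ID8 3 (4.55 against 4.46 on the log2 scale) and with the background as a covariate (5.05 against 4.59). Arg1 (ENSMUSG00000019987, chromosome 10), which encodes the cytosolic arginase of alternatively activated macrophages, stood at 164, 179 and 142 CPM in WT naive libraries 1 to 3. It reached 3340, 3685 and 1978 CPM in WT ID8. In Tim4KO it went from 109, 77.2 and 60.3 CPM in naive to 1173, 1576 and 1244 CPM in ID8 cells. The 4 groups did not overlap in any pair, in the order WT ID8, Tim4KO ID8, WT naive and Tim4KO naive. The challenge response was 18.5-fold in WT (log2 difference 4.21, SE 0.27, edgeR adjusted p = 5.19e-07; 4.46 without WT ID8 3) and 16.2-fold in Tim4KO (log2 difference 4.02, SE 0.27, edgeR adjusted p = 1.3e-06). Because these are bulk samples, fewer cells that express a gene and less RNA per cell cannot be told apart. The summed neutrophil markers given above were also higher in the ID8 libraries, at no more than 33.4 CPM; their part in the Arg1 result was not tested.

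Slc7a2 (ENSMUSG00000031596, chromosome 8), the cationic amino acid transporter that supplies arginine, moved in the same direction. It was at 100.2, 88.9 and 99.4 CPM in WT naive, and at 480, 490 and 299 CPM in WT ID8. In Tim4KO it was at 106, 133 and 111 CPM in naive and at 269, 268 and 281 CPM in ID8 cells. The ID8 libraries of each genotype were all above the naive ones, and the 3 Tim4KO ID8 libraries were close together just below WT ID8 3. The response was 4.38-fold in WT (log2 difference 2.13, SE 0.17, edgeR adjusted p = 1.74e-06; 2.35 without WT ID8 3) and 2.34-fold in Tim4KO (log2 difference 1.22, SE 0.17, edgeR adjusted p = 0.00025). The exons of Slc7a2 overlap those of the gene model Gm26584 on the opposite strand, and how strand was counted is not given in the sources used here.

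The other arginase was barely present. Arg2 (ENSMUSG00000021125, chromosome 12), the mitochondrial arginase, had 0 to 12 counts per library, at most 0.69 CPM, and did not pass the filter on low counts. Its libraries overlapped between all 4 groups. Per kb of exon, a scale on which genes can be compared, Arg1 in WT ID8 stood at 1347 ± 405 CPM per kb (mean ± SD, n = 3) and Arg2 at 0.36 ± 0.12. Slc7a2 on this scale reached 46.3 ± 11.8 CPM per kb in WT ID8. Exons of Arg2 overlap those of Vti1b and Gm48780 on the opposite strand.

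**Figure D2:**
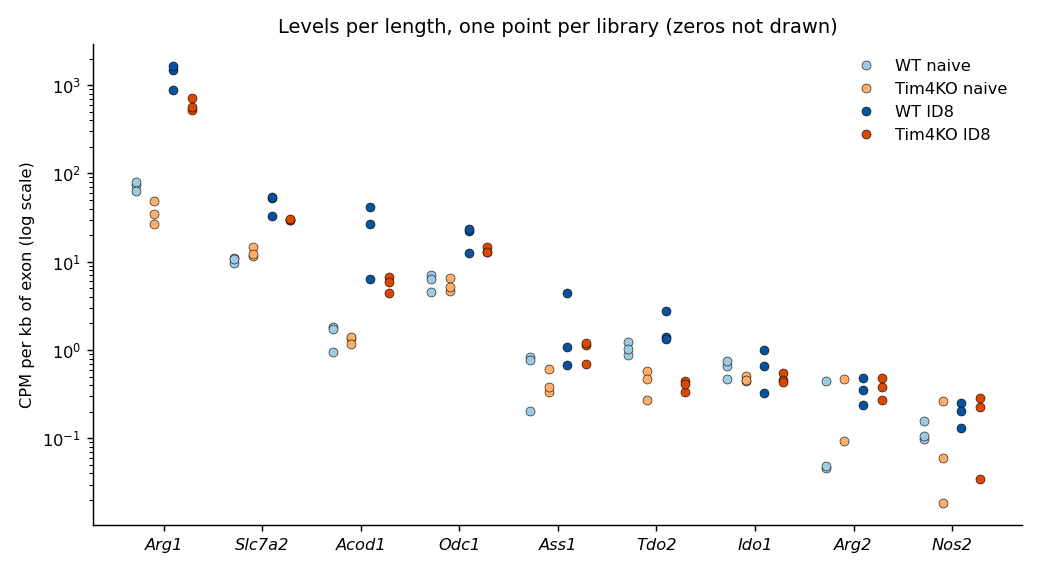
Level per length (CPM per kb of exon, log axis) of the 9 genes, ordered by their highest group mean, with 1 point per library and zeros not drawn. Arg1 lies above the other 8 genes in each group, and Nos2 and Arg2 are the lowest.

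The enzyme that competes with arginase for arginine stayed near the detection limit in all groups. Nos2 (ENSMUSG00000020826, chromosome 11), the inducible nitric oxide synthase, had 1 to 22 counts per library. Its level was 0.43, 0.47 and 0.69 CPM in WT naive and 0.57, 1.115 and 0.91 CPM in WT ID8. In Tim4KO it was 0.08, 0.27 and 1.18 CPM in naive and 0.15, 1.01 and 1.26 CPM in ID8 cells. The Tim4KO libraries spread over more than the whole WT range, and naive and ID8 values overlapped in both genotypes. A difference was not detectable at this depth (log2 difference 0.70, SE 0.83, edgeR adjusted p = 0.524 in WT; 0.56, SE 0.83, edgeR adjusted p = 0.691 in Tim4KO). A floor of 3 counts corresponds to 0.13 to 0.41 CPM of unscaled library total, counting error only. Of 1947 olfactory and vomeronasal receptor genes, 42 had at least the mean level of Nos2 per kb. Nos2 had 20 counts in WT ID8 3, the library with the least background and the largest total. It had 2 counts in Tim4KO ID8 1, the next lowest in background (42.4 CPM). Tim4KO ID8 2 and 3, at 361 and 292 CPM of background, had 11 and 22 counts. The part of background in the Nos2 level was not tested.

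Ass1 (ENSMUSG00000076441, chromosome 2), argininosuccinate synthase, was low and depended on 1 library. It was at 2.04, 1.86 and 0.49 CPM in WT naive and at 2.64, 1.63 and 10.7 CPM in WT ID8, where library 3 alone held 235 counts. Tim4KO libraries were at 0.82, 0.93 and 1.45 CPM in naive and 1.69, 2.76 and 2.87 CPM in ID8 cells. The naive and ID8 libraries overlapped in WT and did not overlap in Tim4KO. The WT response passed the threshold with all libraries (log2 difference 1.83, SE 0.65, edgeR adjusted p = 0.0465) and was 0.57 without WT ID8 3 (edgeR adjusted p = 0.423). With the background as a covariate it was 0.65 (edgeR adjusted p = 0.641). It was called in 2 of the 9 alternatives with all libraries of the groups compared. Among the 12 fits that each left out 1 library it was called in 2. The Tim4KO response was not called (log2 difference 1.15, SE 0.68, edgeR adjusted p = 0.284). WT ID8 3 also had the largest total and the lowest background, given above; their part in its Ass1 level was not tested.

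Odc1 (ENSMUSG00000011179, chromosome 12), the rate-limiting enzyme of polyamine synthesis, rose in both genotypes. It stood at 23.9, 21.7 and 15.4 CPM in WT naive and at 75.2, 79.0 and 42.3 CPM in WT ID8. In Tim4KO it stood at 22.2, 15.9 and 17.8 CPM in naive and 44.0, 50.5 and 43.5 CPM in ID8 cells. All 6 ID8 libraries were above all 6 naive ones, and the genotypes overlapped within each condition. The response was 3.20-fold in WT (log2 difference 1.68, SE 0.23, edgeR adjusted p = 0.000137; 1.95 without WT ID8 3) and 2.45-fold in Tim4KO (log2 difference 1.29, SE 0.23, edgeR adjusted p = 0.00175).

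Acod1 (ENSMUSG00000022126, chromosome 14), also known as Irg1, rose in both genotypes from a low level, with a wide spread in WT. It was at 4.83, 2.46 and 4.52 CPM in WT naive and at 69.9, 108 and 16.7 CPM in WT ID8. In Tim4KO it was at 3.59, 3.71 and 3.08 CPM in naive and at 11.7, 17.5 and 15.4 CPM in ID8 cells. WT ID8 1 and 2 were high, whereas WT ID8 3 fell within the range of the Tim4KO ID8 libraries. The tests of its response share the ID8 libraries whose genotype difference was known when the list was made. The response was 16.5-fold in WT (log2 difference 4.05, SE 0.62, edgeR adjusted p = 0.00134). In Tim4KO it was 4.31-fold (log2 difference 2.11, SE 0.61, edgeR adjusted p = 0.0451). The WT call was kept in all 9 alternatives with all libraries of the groups compared. It was also kept in all 12 fits that each left out 1 library, with 4.55 without WT ID8 3. The Tim4KO call was kept in 6 of those 9 alternatives (edgeR adjusted p up to 0.151) and in 2 of the 12 leave-one-out fits (up to 0.157), at log2 differences of 1.99 to 2.53. WT ID8 3 had the lowest neutrophil marker sum of the ID8 libraries, 12.2 CPM. Its markers of small peritoneal macrophages and dendritic cells summed to 158 CPM, against 86.8 and 76.4 in WT ID8 1 and 2. The part of either cell type in the Acod1 level was not tested.

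Stretches upstream of the start are shown for Odc1 and Acod1, which rose in both genotypes, and for Tdo2, which was called in neither. They are the 250 bases before the annotated start in RefSeq (build GRCm38.p6), 5′ to 3′ on the gene's strand, with matches to the searched motifs in capitals. Of the 9 genes, 4 had an entry (Ass1, Odc1, Tdo2 and Acod1). Odc1 is at chr12:17544623-17544872 on the plus strand, Acod1 at chr14:103046762-103047011 on the plus strand and Tdo2 at chr3:81975729-81975978 on the minus strand.
Odc1: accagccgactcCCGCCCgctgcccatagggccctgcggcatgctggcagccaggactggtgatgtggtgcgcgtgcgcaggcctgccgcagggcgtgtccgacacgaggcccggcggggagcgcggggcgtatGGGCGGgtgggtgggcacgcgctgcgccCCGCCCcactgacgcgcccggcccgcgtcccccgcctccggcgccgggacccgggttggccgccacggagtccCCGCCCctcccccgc
Acod1: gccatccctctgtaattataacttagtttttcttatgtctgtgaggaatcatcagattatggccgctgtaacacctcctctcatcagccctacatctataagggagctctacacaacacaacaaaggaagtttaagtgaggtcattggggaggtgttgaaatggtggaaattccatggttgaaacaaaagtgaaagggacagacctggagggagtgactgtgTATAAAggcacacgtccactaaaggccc
Tdo2: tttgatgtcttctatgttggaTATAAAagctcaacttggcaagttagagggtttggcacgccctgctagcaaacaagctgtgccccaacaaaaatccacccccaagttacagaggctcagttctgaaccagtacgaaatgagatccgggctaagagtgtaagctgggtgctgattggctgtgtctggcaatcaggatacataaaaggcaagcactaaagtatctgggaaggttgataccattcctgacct
The motifs were the TATA box TATAAA, the GC box GGGCGG, the E-box CACGTG, the cyclic AMP response element TGACGTCA, the interferon gamma activated site TTCNNNGAA and the NF-kB consensus, on both strands. The Odc1 window held 4 GC boxes, starting 238, 116, 88 and 15 bases before the start, and none of the other motifs. Acod1 held 1 TATAAA, 28 bases before its start, and Tdo2 held 1, 229 bases before its start. Of all 32851 RefSeq windows of this length, 32.7% held a GC box and 12.4% a TATAAA, and the other 4 motifs were in 1.55% to 7.25%. The windows also differed in base composition, with 80.0% G and C in Odc1, 44.4% in Acod1 and 46.4% in Tdo2 against a median of 52.4%. A match describes letters in the window and is not evidence of binding.

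Tdo2 (ENSMUSG00000028011, chromosome 3), tryptophan 2,3-dioxygenase, was low in all groups and lower in Tim4KO than in WT libraries. It stood at 4.83, 3.39 and 4.03 CPM in WT naive and at 5.50, 5.23 and 10.9 CPM in WT ID8. In Tim4KO it stood at 1.06, 2.25 and 1.85 CPM in naive and at 1.30, 1.75 and 1.61 CPM in ID8 cells. All 6 WT libraries were above all 6 Tim4KO libraries, but the ID8 part of this was known when the list was made. The difference between naive genotypes, given below, was not called. In naive cells 6.72% of all tested genes were lower in Tim4KO without overlap. With challenge the WT libraries were higher without overlap, but the difference was not called (log2 difference 0.83, SE 0.32, edgeR adjusted p = 0.0604). It was 0.42 without WT ID8 3 (edgeR adjusted p = 0.345). It was called in 2 of 9 alternatives with all libraries of the groups compared and in 3 of the 12 leave-one-out fits. The Tim4KO difference was -0.13 (SE 0.37, edgeR adjusted p = 0.843).

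Ido1 (ENSMUSG00000031551, chromosome 8), the interferon-inducible tryptophan dioxygenase, was low in all groups. Its 12 libraries held 7 to 20 counts each. Levels were 0.86, 1.20 and 1.39 CPM in WT naive, 1.83, 1.20 and 0.59 in WT ID8, 0.82, 0.93 and 0.84 in Tim4KO naive, and 0.998, 0.83 and 0.80 in Tim4KO ID8. Naive and ID8 libraries overlapped in both genotypes, and WT ID8 was the most spread group. The log2 differences were 0.01 in WT (SE 0.53, edgeR adjusted p = 0.991) and 0.03 in Tim4KO (SE 0.52, edgeR adjusted p = 0.979), and their sign changed with the scaling.

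Counted over the 9 genes, 8 could be tested, among them Tdo2 and Acod1, whose ID8 values were known when the list was made. Challenge raised 5 in WT (Arg1, Ass1, Slc7a2, Odc1 and Acod1) and 4 in Tim4KO (those without Ass1), and lowered 0 in either. Of all 15943 tested genes, 31.8% were called in WT (19.5% higher, 12.3% lower) and 16.6% in Tim4KO (11.5% higher, 5.06% lower). Naive and ID8 libraries did not overlap, with ID8 higher, for 5 of the 8 in WT and 5 of the 8 in Tim4KO, against 23.6% and 23.8% of all tested genes. By edgeR, the others that were tested (3 in WT and 4 in Tim4KO) were not called in either direction, and at an unadjusted p under 0.05 the count was 6 in WT and 4 in Tim4KO, against 45.5% and 29.9% of all tested genes. Without WT ID8 3 the WT count was 4. By DESeq2 it was 5 in WT and 4 in Tim4KO, and by limma voom 5 (with Tdo2 in place of Ass1) and 3 (without Acod1). Upper-quartile scaling moved the median log2 difference of all tested genes from -0.04 to -0.28 in WT and from -0.05 to -0.17 in Tim4KO. The share of called genes that were higher then went from 61.3% to 33.9% in WT and from 69.5% to 48.7% in Tim4KO. Arg1, Slc7a2, Odc1 and Acod1 stayed called higher in both genotypes under it.

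**Figure D3:**
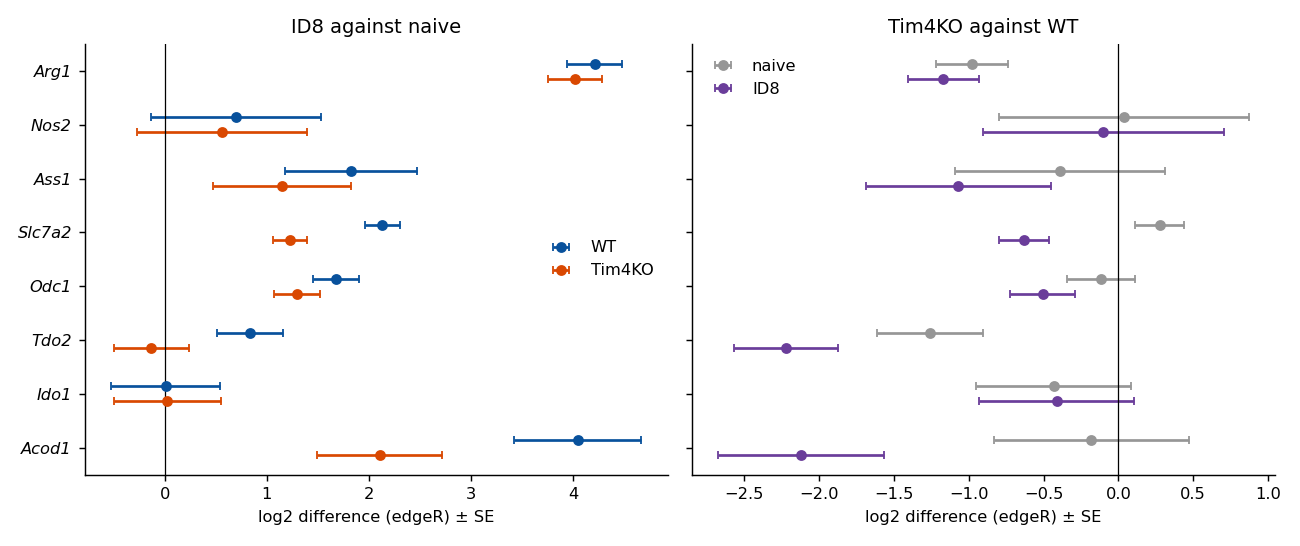
Log2 differences from the edgeR fit with SE for the 8 tested genes: ID8 against naive in each genotype (left) and Tim4KO against WT in each condition (right). Arg1 has nearly the same challenge response in both genotypes, 4.21 and 4.02, and Acod1 has the most unequal ones, 4.05 and 2.11.

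In naive cells, none of the 8 tested genes passed the threshold between genotypes (edgeR, 0 of 8), where 0.0439% of all tested genes were called (0.0251% higher, 0.0188% lower), and 2 of the 8 had an unadjusted p under 0.05, against 6.27% of all tested genes. Those 2 were Arg1 (log2 difference -0.98, SE 0.24, edgeR adjusted p = 0.36) and Tdo2 (-1.26, SE 0.35, edgeR adjusted p = 0.524), each lower in all 3 Tim4KO libraries than in any WT library. Genotypes did not overlap in naive cells for 14% of all tested genes (7.33% higher, 6.72% lower in Tim4KO). Arg1 was called by DESeq2 (-0.997, adjusted p = 0.0102), when low-count genes were kept in (edgeR adjusted p = 9.79e-07) and without WT ID8 3 (edgeR adjusted p = 0.0185), with an edgeR adjusted p of up to 0.97 when other libraries were left out. By limma voom 0 of the 8 were called. Slc7a2 was higher in all 3 Tim4KO naive libraries than in WT (log2 difference 0.28, SE 0.17, edgeR adjusted p = 0.823). The remaining 5 genes overlapped between the naive genotypes.

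In challenged cells, values are descriptions because this difference was in view when the list was made. Tdo2 was lower in Tim4KO ID8 by 2.22 on the log2 scale (SE 0.35), Acod1 by 2.12 (SE 0.55) and Arg1 by 1.17 (SE 0.24). Slc7a2 differed by -0.63 (SE 0.16) and Odc1 by -0.50 (SE 0.22). Libraries of the genotypes did not overlap for Arg1, Slc7a2 and Tdo2, against 15.6% of all tested genes (6.98% higher, 8.62% lower in Tim4KO), and overlapped for Acod1 and Odc1 through WT ID8 3. Ass1 differed by -1.07 (SE 0.62), and by 0.21 without WT ID8 3. The Arg1 difference was of similar size in naive cells, -0.98 against -1.17. With all libraries 1 of the 8 tested genes, Tdo2, was among the 0.0565% of tested genes called (0.00627% higher, 0.0502% lower), from which nothing is read. Without WT ID8 3 these values were -1.40 for Arg1, -0.83 for Slc7a2, -0.75 for Odc1, -1.78 for Tdo2 and -2.60 for Acod1.

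**Figure D4:**
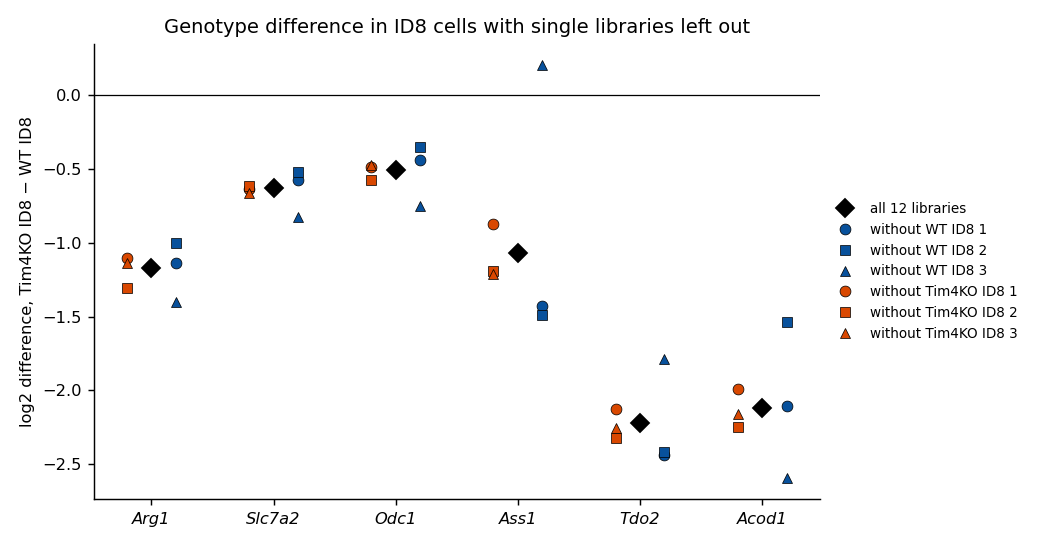
Log2 difference between Tim4KO ID8 and WT ID8 for 6 genes with all 12 libraries (diamond) and with each ID8 library left out (blue, WT; orange, Tim4KO). Leaving out WT ID8 3 (blue triangle) moves Ass1 from -1.07 to 0.21 and brings the values of Arg1, Slc7a2, Odc1 and Acod1 further from 0 and Tdo2 nearer to it.

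The challenge responses of the genotypes are set side by side as descriptions too. The Tim4KO response minus the WT response was -0.19 for Arg1 (SE 0.34), -0.91 for Slc7a2 (SE 0.23), -0.39 for Odc1 (SE 0.32) and -1.94 for Acod1 (SE 0.85). For Tdo2 it was -0.96 (SE 0.49), with a response near 0 in Tim4KO. For Ass1 it was -0.68 (SE 0.94), for Nos2 -0.14 (SE 1.17) and for Ido1 0.02 (SE 0.71). Over all 15943 tested genes edgeR called 0 for this difference of responses. Acod1 ranged from -2.43 without WT ID8 3 to -1.36 without WT ID8 2.

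Further genes of these pathways, 115 in 5 lists written from general knowledge, were examined in the same fit, and 95 were tested. Their counts stand beside 19.5% of all tested genes called higher and 12.3% lower in WT, and 11.5% and 5.06% in Tim4KO. Around arginine and nitric oxide, 7 of 18 tested genes rose in WT and 1 fell (Pts, by 0.45 on the log2 scale, called in 16 of 21 alternatives), and 8 rose in Tim4KO and 0 fell. The count of 8 was 3 without Tim4KO naive 2, Tim4KO naive 3 or Tim4KO ID8 1, 4 without Tim4KO ID8 3 and 5 without Tim4KO ID8 2. The median log2 difference was 0.36 in WT and 0.42 in Tim4KO, against -0.04 and -0.05 over all tested genes. Slc7a1, another cationic amino acid transporter, rose from 11.4 ± 2.87 to 34.99 ± 8.21 CPM in WT (mean ± SD, n = 3; log2 difference 1.61, SE 0.23, edgeR adjusted p = 0.000207) and by 0.997 in Tim4KO (edgeR adjusted p = 0.00875). Aldh18a1, which makes the proline and ornithine precursor pyrroline-5-carboxylate from glutamate, rose by 1.43 in WT (edgeR adjusted p = 9.37e-05) and 1.46 in Tim4KO (edgeR adjusted p = 0.000169). Prmt1, a protein arginine methyltransferase, rose by 0.77 in WT (edgeR adjusted p = 0.00252) and was also called higher in Tim4KO (15 of 21 alternatives). Gamt, a creatine synthesis enzyme, rose by 0.64 in Tim4KO (edgeR adjusted p = 0.0171, called in 17 of 21 alternatives) and differed by 0.01 in WT.

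Of the polyamine genes, 7 of 19 tested rose in WT and 4 in Tim4KO, and 0 fell in either. The Tim4KO count was 2 without WT naive 2, Tim4KO naive 2, Tim4KO naive 3, Tim4KO ID8 1 or Tim4KO ID8 2, and 2 with 1 falling (Sat1) with DESeq2 size factors. Eif5a, the translation factor whose hypusine is made from the polyamine spermidine, rose by 1.38 in WT (edgeR adjusted p = 0.000889) and by 1.08 in Tim4KO (edgeR adjusted p = 0.00764). Amd1, which makes the aminopropyl donor, rose by 1.19 in WT (edgeR adjusted p = 0.000493) and differed by 0.42 in Tim4KO without being called. Azin1, an antizyme inhibitor that protects ornithine decarboxylase, rose by 0.92 and 0.48, and Sms, spermine synthase, by 0.52 in Tim4KO (edgeR adjusted p of 0.0427 or less), but both Tim4KO calls held in only 11 of 21 alternatives. Sms was also called higher in WT, where the call held in 19 of 21 alternatives. Slc3a2, the heavy chain shared by several amino acid transporters, rose by 1.19 and 0.86 (edgeR adjusted p of 0.004 or less). The medians were 0.11 in WT and 0.30 in Tim4KO. Under upper-quartile scaling the WT median was -0.14, above the -0.28 of all tested genes, and 6 rose and 2 fell, while in Tim4KO 2 rose and 1 fell.

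Among the other tryptophan genes, 6 of 18 tested rose in WT and 1, the low-activity dioxygenase gene Ido2, fell by 2.46 on the log2 scale (1.13 to 1.67 CPM in WT naive and 0 to 0.57 CPM in WT ID8). In Tim4KO 4 rose and 0 fell, and the medians were 0.30 and 0.43. The Ido2 call held in 8 of 21 alternatives and was lost without WT ID8 3. The Tim4KO count was 2 without Tim4KO naive 2, Tim4KO naive 3, Tim4KO ID8 1 or Tim4KO ID8 3. Slc7a5, the light chain of the large neutral amino acid transporter that carries tryptophan, rose by 2.01 in WT (SE 0.41, edgeR adjusted p = 0.00302) and differed by 0.98 in Tim4KO (edgeR adjusted p = 0.119). Wars, the cytosolic tryptophanyl-tRNA synthetase, rose by 1.08 in WT and by 1.02 in Tim4KO, and Got2, a mitochondrial aminotransferase, by 0.76 and 0.94 (edgeR adjusted p of 0.0022 or less). Slc7a8, another neutral amino acid transporter, rose by 1.30 and 1.01, and Gcdh, which acts late in tryptophan and lysine breakdown, by 0.60 in Tim4KO (edgeR adjusted p of 0.0354 or less). The Tim4KO calls held in 11 of 21 alternatives for Slc7a8 and in 15 for Gcdh.

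The list of other itaconate and TCA genes rose in 21 of 34 genes in WT and 19 of 34 in Tim4KO, with 0 and 1 falling, the 1 being Nfe2l2 at -0.42 (called in 7 of 21 alternatives), and with a median of 0.45 in each genotype. The WT count was 9 with only the groups compared and 10 with the background as a covariate. The Tim4KO count was 10 without Tim4KO naive 2 or 3 and 12 without any 1 of the Tim4KO ID8 libraries. Mdh2, mitochondrial malate dehydrogenase, rose by 1.24 in WT (edgeR adjusted p = 5.08e-05) and by 1.10 in Tim4KO (edgeR adjusted p = 0.000258). Cs, citrate synthase, rose from 97.2 ± 5.71 to 195 ± 30.3 CPM in WT (n = 3; log2 difference 1.001, SE 0.13, edgeR adjusted p = 9.85e-05) and by 0.77 in Tim4KO (edgeR adjusted p = 0.00144). Dlst and Ogdh, parts of the 2-oxoglutarate dehydrogenase complex, rose by 0.99 and 0.75 in WT, and Dlst and the cytosolic malate dehydrogenase Mdh1 by 0.82 and 0.83 in Tim4KO (edgeR adjusted p of 0.0010 or less). Ogdh was also called higher in Tim4KO (19 of 21 alternatives) and Mdh1 in WT (18 of 21). With upper-quartile scaling 9 of these 34 rose in WT and 12 in Tim4KO, with 1 falling in each. Of the 6 tested genes around the aryl hydrocarbon receptor, Ahr itself fell by 1.36 in WT (edgeR adjusted p = 0.00067) and by 1.17 in Tim4KO (edgeR adjusted p = 0.00348). Its repressor Ahrr fell by 1.19 in WT (edgeR adjusted p = 0.0224, called in 15 of 21 alternatives and not without WT ID8 3) and differed by -0.22 in Tim4KO (edgeR adjusted p = 0.708). Upper-quartile scaling moved the median of these 6 from 0.08 to -0.17 in WT, and in Tim4KO it was -0.01 and -0.12. Without WT ID8 3, the numbers rising and falling in WT were 8 and 1 (arginine), 7 and 3 (polyamine), 5 and 0 (tryptophan), 18 and 1 (itaconate and TCA) and 1 and 1 (aryl hydrocarbon receptor, Tiparp rising and Ahr falling). Under upper-quartile scaling the arginine list had 5 rising and 1 falling in WT and 3 and 1 in Tim4KO, and the tryptophan list 4 and 3 in WT and 2 and 0 in Tim4KO. The neutrophil marker sums were higher in ID8 libraries of both genotypes, and their part in these counts was not tested. Between genotypes in naive cells edgeR called 0 of the 95 genes, 5 had an unadjusted p under 0.05 (against 6.27% of all tested genes), and DESeq2 and limma voom called 0.

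**Figure D5:**
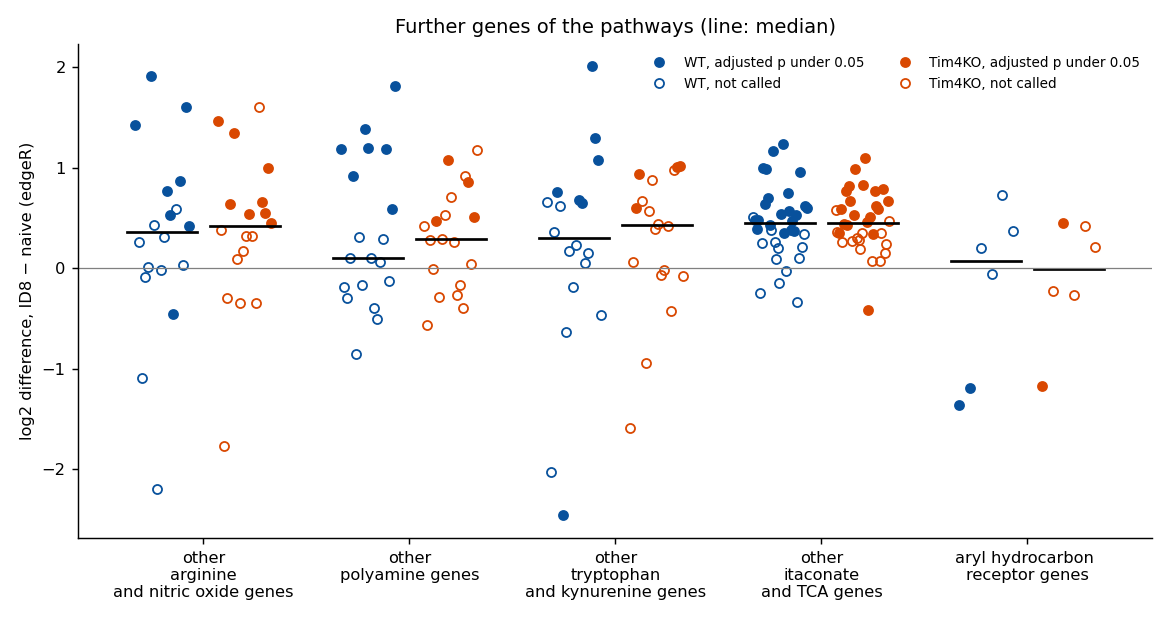
Log2 difference between ID8 and naive cells for the tested genes of 5 further pathway lists in WT (blue) and Tim4KO (orange), with filled points for an edgeR adjusted p under 0.05 and a line at each median. The itaconate and TCA list has medians of 0.45 in both genotypes, and Ahr lies at -1.36 and -1.17.

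The genes most like the members were found by Pearson's r of log2(CPM + 1) over the 12 libraries, among 9688 genes with a mean of at least 50 counts. The libraries share their split by condition, so r describes these libraries only. For Arg1 they were Ppif, Esd and Tpi1 (r = 0.99 each) and for Odc1 Cct3, Ppa1 and Snrpa1 (r = 0.99 each). For Slc7a2 they were Mmp14, Hars and Acot7 (r = 0.98 each). For Acod1 they were Igf2bp2, Slc3a2 and Slc7a7 (r = 0.98 each). Tdo2 had looser matches, Ofcc1 (r = 0.90), Ift80 (0.87) and Zbed3 (0.87).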

How the data were processed

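The authors deposited 1 table of raw read counts per Ensembl gene, with 57010 genes and 12 libraries. Values are whole numbers, and library totals differ. RNA was extracted with an RNeasy micro kit and amplified with a SMART-Seq mRNA LP kit, per the labels' protocols. FastQC, STAR 2.5 and the builds mm10 and GRCm39 are named in the submitters' processing notes without a role. The counting program, annotation release, strand handling and multi-mapping rules are not given in the sources used here. Symbols and exon lengths came from GENCODE mouse release M21 (GRCm38), which named 52029 of the identifiers.

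edgeR 4.0.16 (R 4.3.3) fitted a mean per group to all 12 libraries after filterByExpr (15943 genes kept), with TMM scaling, robust dispersions and 8 residual degrees of freedom. Quasi-likelihood tests were two-sided, with p adjusted by Benjamini-Hochberg over the tested genes and a threshold of 0.05. SE is the absolute log2 difference divided by the square root of F. The script was tested on simulated data. Alternatives were DESeq2 1.42.0, limma 3.58.1 (voom), other scalings and filters, the replicate number as a block, a background covariate (olfactory and vomeronasal receptor genes with a mean of at most 1 CPM), a fit to only the groups compared and each library left out. Named pathway genes were those called, up to 4 per list and challenge comparison, with the smallest p. Genes outside that rule (Pts, Ido2, Nfe2l2, Sat1, Tiparp) were named after their values were seen, and some genes that the rule names are not reported here. The members, lists and tests were chosen with earlier results of these data known.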

Additional observations from a re-analysis of the deposited data

How the results depend on the processing

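Arg1, Slc7a2 and Odc1 kept their challenge calls in both genotypes in all 9 alternatives with all libraries of the groups compared. They also kept them in all 12 fits that each left out 1 library, and Acod1 kept its WT call in both sets of fits. Of 498 member values under an alternative in the 3 tested comparisons, 24 changed sign, all of them for differences that were not called. Of 326 in the comparisons that are only described, 17 did, for Ass1, Nos2, Ido1 and Arg1 (its difference of responses, 0.048 without Tim4KO naive 1). Ido1 in WT was -0.048 with DESeq2 size factors, -0.21 with upper-quartile scaling, -0.062 with a mean count of at least 10, -0.074 by DESeq2, -0.40 by limma voom, -0.040 with the replicate block and -0.085 with only the groups compared. In Tim4KO it was -0.022 with DESeq2 size factors, -0.092 with upper-quartile scaling, -0.013 with a mean count of at least 10, -0.020 by DESeq2 and -0.0038 with only the groups compared. Leaving out 1 library gave -0.35 to 0.38 for Ido1 in WT, -0.058 to 0.11 for Ido1 in Tim4KO, and -0.37 to 0.082 for Tdo2 in Tim4KO. Between naive genotypes, Nos2 was -0.0068 by DESeq2, -0.39 by limma voom and -0.30 with the replicate block (-1.69 to 0.53 with 1 library left out), Odc1 ran from -0.28 to 0.011, and Acod1 was 0.0013 with the background covariate. Why these signs changed was not tested.

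The number of genes called over all tested genes was 3102 instead of 5067 for challenge in WT with only the groups compared. For genotype in naive cells it was 59 without a filter, 52 by DESeq2, 4 by limma voom, 3 with the replicate block and 2 with only the groups compared, instead of 7. In ID8 cells it was 264 without a filter, 265 by DESeq2, 14 with the replicate block and 189 with the background covariate, instead of 9. For the difference of responses edgeR called 0, with 1186 genes at an unadjusted p under 0.05, against 73 without a filter, 11 by DESeq2 and 2 with the background covariate. Leaving out 1 library gave 3362 (WT naive 3) to 7230 (WT ID8 1) for challenge in WT and 1222 (Tim4KO naive 2) to 3595 (WT ID8 3) for challenge in Tim4KO. It gave 1 to 29 for genotype in naive cells, 1 to 997 in ID8 cells and 0 to 368 for the difference of responses, each highest without WT ID8 3. The cause was not tested. Libraries with the same number deviated together with r of -0.10 to 0.35 (over 0.1 in 7 of 18 pairs), and a library correlated best with its own number in 14 of 36 cases, so the numbers were not taken to pair libraries. With the block, Ass1 in WT (1.5) and Acod1 in Tim4KO (2.10) were no longer called. Depth limits Arg2, Nos2 and Ido1, which had 22 counts or fewer in every library.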
